A study of Mus musculus with 24 samples.

Results

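The heart and the gastrocnemius, a calf muscle of mostly fast fibres, were compared within 3 wild type mice. The comparison used the 6 arrays that the labels give as wild type heart (3 arrays) and wild type gastrocnemius (3 arrays), of 24 arrays in the series. The animal numbers in the labels (61, 65 and 66) give 1 heart array and 1 gastrocnemius array for each animal, so tissues were compared within animals. All 3 animals were C57BL/6J males aged 2 months, and the labels give no treatment; 25 ng of RNA from each tissue was amplified for its array. The whole study covered 4 genotypes with 3 animals each: wild type, a knockout of Cmah (the enzyme that makes the sialic acid Neu5Gc), mdx (a dystrophin-deficient model of Duchenne muscular dystrophy) and mdx mice that also lack Cmah. Cmah knockout mice were of the same strain, and both mdx groups carried the strain label C57BL6/10J. They were likewise males of 2 months and were used here to see which tissue differences came back in other animals. The labels name whole tissue, so each array mixes muscle cells with vessel, connective tissue, nerve and immune cells.

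Cardiac and skeletal muscle are both striated and share the sarcomere, in which myosin thick filaments pull on actin thin filaments when calcium binds troponin. Many sarcomere and calcium handling proteins exist as separate gene products for heart, slow fibres and fast fibres, and the slow fibre form is often the same gene as the ventricular form. In heart, calcium entering through the L-type channel opens the ryanodine receptor, whereas in skeletal muscle the L-type channel acts as a voltage sensor that is mechanically coupled to the receptor. Heart muscle cells are joined end to end by intercalated discs, beat without nerve input and draw most energy from fatty acids, whereas fast fibres are driven by motor nerves and rely more on glycogen and glycolysis.

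Values are log2 of the deposited intensity, and a difference is heart minus gastrocnemius on that scale, so a negative difference means higher in gastrocnemius. Array medians lay between 5.45 and 5.60 on the log2 scale, and arrays of one tissue correlated at 0.920 to 0.985 over probe sets, against 0.897 to 0.948 across tissues. Before the results, each tissue was checked for the markers of the other. In gastrocnemius, the array of animal 61 had the highest value for all 7 cardiomyocyte markers that passed, with a median of 7.99 against 4.37 in animal 65 and 3.90 in animal 66. Myh6 in that gastrocnemius reached 13.3% of the mean heart intensity, against 0.250% and 0.611% in animals 65 and 66. Tested cardiomyocyte markers that did not pass had another order. Actc1 and Myl3 were lowest in the gastrocnemius of animal 61 (54.9% and 60.7% of the heart mean), and Myl2 was highest in animal 66. The summed linear intensity of all 11 cardiomyocyte markers was 26702, 25904 and 25755 in the gastrocnemius of animals 61, 65 and 66. In the hearts it was 75853 to 92334. In heart, the array of animal 65 had the highest and that of animal 61 the lowest value for all 11 fast fibre markers, with medians of 10.94 in animal 65, 9.63 in animal 66 and 7.55 in animal 61. The summed linear intensity of those markers was 5637, 26332 and 12133 in the hearts of animals 61, 65 and 66, against 115842 to 125590 in gastrocnemius. For the Gapdh controls, the 3′ probe set minus the 5′ probe set gave 0.82 and 1.09 in the gastrocnemius and heart of animal 61 and 0.39 to 0.52 in the other 4 arrays. The same measure for Actb was 1.03, 1.29 and 0.82 in the gastrocnemius of animals 61, 65 and 66 and 1.88, 1.28 and 1.57 in their hearts, higher in heart in animals 61 and 66 and about equal in animal 65. The part of these signals in any single tissue difference was not tested.

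Of 27711 probe sets tested, 4570 (16.5%) passed a Benjamini-Hochberg adjusted p below 0.05 in the paired limma fit, 2679 (9.67%) with a higher value in heart and 1891 (6.82%) with a higher value in gastrocnemius. Read as 1 probe set per gene, 2297 of 12628 genes (18.2%) passed, 1221 (9.67%) higher in heart and 1076 (8.52%) higher in gastrocnemius. Among them, 130 genes were higher in heart and 185 higher in gastrocnemius by at least 3 log2 units. The median difference over all genes tested was 0.04 and the median absolute difference was 0.46. Values of the 3 hearts and 3 gastrocnemius arrays did not overlap for 3816 genes (30.2%), or 26.9% of probe sets, and 36.5% of genes (35.1% of probe sets) had an unadjusted p below 0.05. With the arrays of 3 animals, p-values measure the spread between these animals only, and their small number limits the precision. Leaving out animal 65 reduced the probe sets that passed to 424 and 442 (225 and 287 genes), and leaving out animal 66 to 1638 and 1202 (721 and 728 genes), whereas 2182 and 1632 (990 and 891 genes) passed without animal 61. In what follows, numbers such as "(9, 0, 4 in turn)" after a gene list's count are the counts that passed when animals 61, 65 and 66 were left out in turn, given where one differs from that count by over 1.5 times. A list median is likewise followed by its 3 values in those fits where one moved by over 1.5 times or changed sign. Related myosin, actin and troponin genes share long stretches of sequence, so a probe set can also bind RNA of a near copy. In bulk tissue, fewer cells of a type and less RNA per cell cannot be told apart. For 187 genes higher in heart and 201 higher in gastrocnemius, the lower tissue had a mean under the 40th percentile of all values (4.68), where the size of a difference is uncertain.

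**Figure D1:**
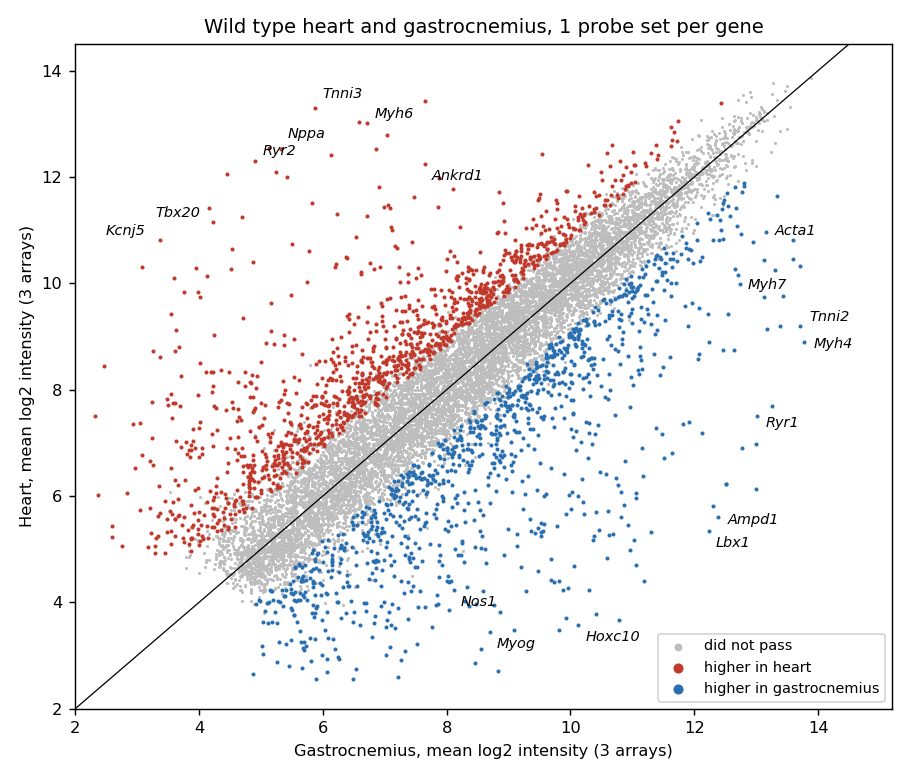
Mean log2 intensity of each of 12628 genes in gastrocnemius (horizontal axis) and heart (vertical axis), 3 arrays each, with the line of equality. Red points are the 1221 genes that passed higher in heart and blue points the 1076 that passed higher in gastrocnemius. Labelled heart genes such as Tnni3 and Ryr2 lie far above the line, and labelled gastrocnemius genes such as Lbx1 and Hoxc10 far below it.

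The 15 genes with the largest differences in heart included genes of the sarcomere, of cardiac rhythm and of the natriuretic peptides. Myl7, the atrial regulatory light chain, had log2 intensities of 11.45, 12.31 and 12.43 in the hearts of animals 61, 65 and 66 and 5.52, 4.10 and 3.73 in their gastrocnemius (difference 7.61 ± 0.53 SE, adjusted p = 0.00107). Kcnj5, a subunit of the potassium channel that slows the atria under vagal input, stood at 10.84, 10.66 and 10.93 in heart and 4.05, 3.21 and 2.85 in gastrocnemius (difference 7.44 ± 0.30 SE, adjusted p = 0.000425). In both genes the tissues were far apart in every animal. Next came the sarcomere genes Tnni3 (7.42) and Mybpc3 (7.40), the calcium release channel Ryr2 (7.39), the natriuretic peptide genes Nppb (7.25) and Nppa (7.21) and Corin (7.22), the protease that processes the atrial peptide precursor. Tbx20, a cardiac transcription factor, differed by 6.93, Mylk3, the cardiac myosin light chain kinase, by 6.84 and Nebl, a nebulin relative of the cardiac Z disc, by 6.57. The remaining genes of the 15 largest were Mov10l1 (6.55), Mtus2 (6.50), Mapk10 (6.33) and Ptgds (6.46), a prostaglandin D synthase. Tnni3, Mybpc3, Ryr2 and Nppa did not pass without animal 65 (adjusted p = 0.0518 to 0.0708).

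The 15 largest differences in the other direction were led by Ppp1r27, a regulatory subunit of protein phosphatase 1, at 9.60, 11.66 and 11.07 in the gastrocnemius of animals 61, 65 and 66 and 2.79, 4.90 and 3.30 in heart (difference -7.12 ± 0.28 SE, adjusted p = 0.000419). Lbx1, a homeobox gene of migrating limb muscle precursors, stood at 12.16, 12.67 and 11.86 in gastrocnemius and 5.02, 6.54 and 4.49 in heart (difference -6.88 ± 0.30 SE, adjusted p = 0.000454). Both tissues were again separate in all animals, although the heart of animal 65 was the highest heart for each gene. Fast and slow sarcomere genes followed: Myh2 (-6.87), the fast oxidative myosin, Myoz3 (-6.79) of the Z disc, Tnni1 (-6.37), the slow troponin I, and Mybpc1 (-6.27), the slow myosin binding protein C. Ampd1, the muscle AMP deaminase, differed by -6.78, and Hoxc10 and Hoxa9, homeobox genes of posterior body position, by -6.55 and -6.12. Also among the 15 were Sypl2 (-6.49), a protein of the triad junction, Smtnl1 (-6.07), Dusp13 (-6.22), a phosphatase, Cntnap2 (-6.33), Myhas (-6.30), an antisense RNA of the fast myosin locus, and 2310065F04Rik (-6.63).

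The thick filament separated the tissues by gene copy. Myh6, the alpha myosin heavy chain of adult mouse heart, stood at 12.89, 12.92 and 13.21 in the hearts of animals 61, 65 and 66 and 10.11, 4.37 and 5.66 in gastrocnemius (difference 6.29 ± 1.05 SE, adjusted p = 0.0145). The hearts lay close together, whereas the gastrocnemius of animal 61 was far above the others. Myh4, the myosin of the fastest fibres, stood at 13.79, 13.69 and 13.84 in gastrocnemius and 7.32, 10.32 and 9.03 in heart (difference -4.89 ± 0.56 SE, adjusted p = 0.00438). Here the gastrocnemius arrays were close together and the hearts were spread, with animal 65 highest. The gastrocnemius values were close to the array maxima (13.79 to 13.95), where spread and difference may be compressed. Without animal 61, Myh6 differed by 8.05 and Myh4 by -4.09. Of the 7 cardiac type thick filament genes tested, Myl7, Mybpc3, Myh6 and Myl4, the atrial essential light chain (2.90), were higher in heart (4, 2, 4 in turn) and 1 was lower (1, 0, 1 in turn), with a median of 2.90 against 0.04 over all genes. The lower one was Myh7, the beta myosin heavy chain of slow fibres and of the fetal mouse ventricle, at 8.77, 9.39 and 11.82 in heart and 12.77, 12.57 and 12.87 in gastrocnemius (difference -2.74 ± 0.55 SE, adjusted p = 0.0249). The heart of animal 66 lay nearer to the gastrocnemius arrays than to the other hearts. Myl2 and Myl3, the ventricular and slow light chains, did not pass (0.58, adjusted p = 0.114, and 0.50, adjusted p = 0.152), although no heart value overlapped a gastrocnemius value. All 11 skeletal type thick filament genes tested were higher in gastrocnemius, with a median of -4.03. Among them were Myh1 (-6.02), Mybpc2 (-4.03), the fast myosin binding protein C, Mylpf (-3.12), the fast regulatory light chain, and Myl1 (-1.69), the fast essential light chain. Myh6 and Myh7 did not pass without animal 65 (adjusted p = 0.107 to 0.168). Mylpf and Myl1 did not pass without animal 66 (adjusted p = 0.0574 to 0.0625).

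**Figure D2:**
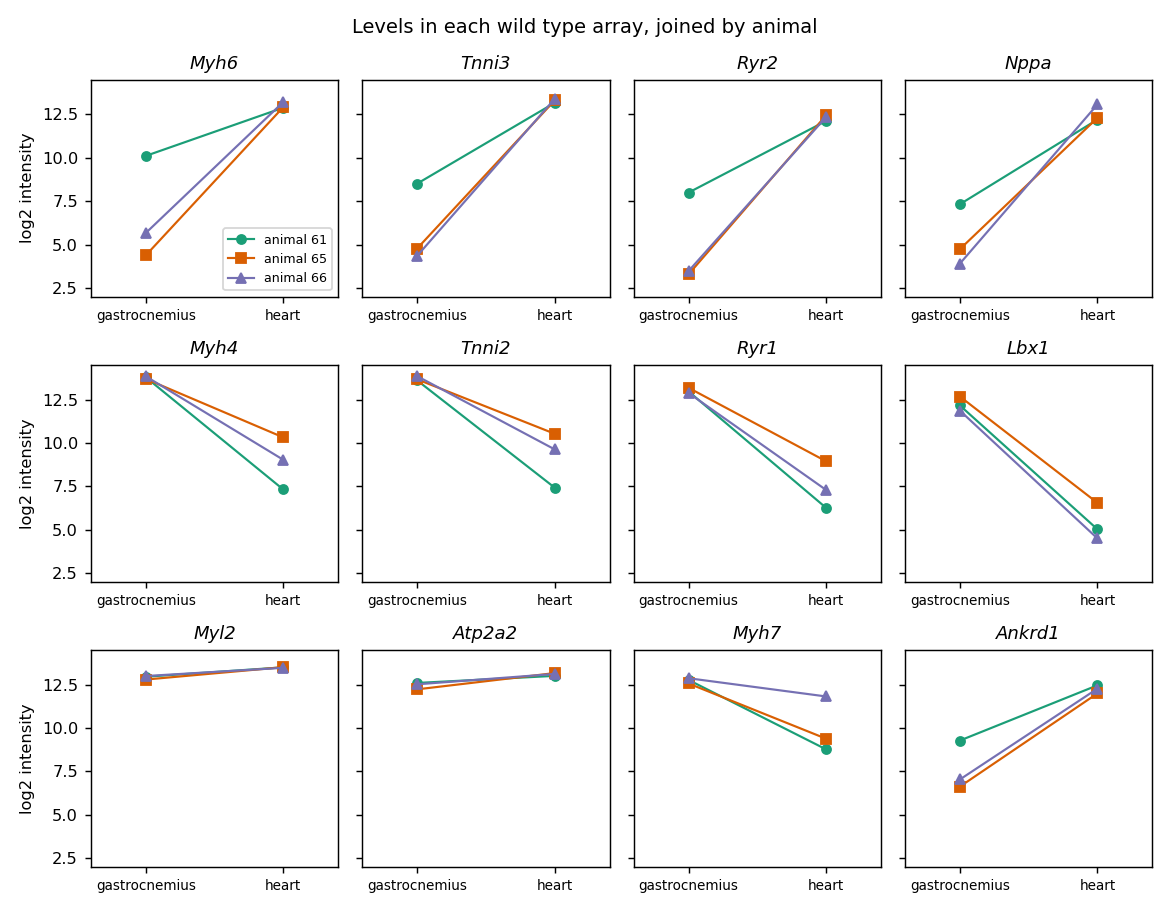
Log2 intensity (vertical axis) of 12 genes in each wild type array, with the gastrocnemius and heart of an animal joined by a line and each animal given its own colour and symbol. The gastrocnemius of animal 61 is the highest of the 3 for Myh6, Tnni3, Ryr2, Nppa and Ankrd1, the heart of animal 65 is the highest for Myh4, Tnni2, Ryr1 and Lbx1, and lines of Myl2 and Atp2a2 are nearly flat.

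Promoters of 2 counterpart pairs are shown because their genes went opposite ways, Myh6 and Myh4 of the thick filament and Ankrd1 and Ankrd2 of the Z disc. Each window holds 250 bases before and 50 after the RefSeq gene start in GRCm38.p6, read along the gene, with matches to 4 short motifs in capitals. The first motif was TATAAA, the core promoter element that helps to set the start site, searched on the strand of the gene only. The others were searched on both strands. AGATAA, read as TTATCT on the other strand, is bound by GATA factors. CATTCC, read as GGAATG on the other strand, is bound by TEAD factors. CAGCTG is the E-box of myogenic factors and reads the same on both strands. No motif contains another. Myh6 lies at chr14:54966558-54966857 (minus strand), Myh4 at chr11:67237562-67237861 (plus strand), Ankrd1 at chr19:36119795-36120094 (minus strand) and Ankrd2 at chr19:42035777-42036076 (plus strand).
Myh6: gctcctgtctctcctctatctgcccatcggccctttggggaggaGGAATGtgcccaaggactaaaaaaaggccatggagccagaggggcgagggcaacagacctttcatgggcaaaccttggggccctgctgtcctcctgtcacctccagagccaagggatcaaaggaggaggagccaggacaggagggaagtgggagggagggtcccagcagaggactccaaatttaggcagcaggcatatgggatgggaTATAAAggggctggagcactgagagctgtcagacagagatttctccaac
Myh4: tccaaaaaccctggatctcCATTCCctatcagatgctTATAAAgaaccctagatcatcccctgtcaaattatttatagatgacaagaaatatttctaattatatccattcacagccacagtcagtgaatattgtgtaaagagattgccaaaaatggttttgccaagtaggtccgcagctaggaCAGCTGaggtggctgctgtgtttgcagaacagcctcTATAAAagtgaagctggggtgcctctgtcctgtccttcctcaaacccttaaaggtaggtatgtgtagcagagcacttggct
Ankrd1: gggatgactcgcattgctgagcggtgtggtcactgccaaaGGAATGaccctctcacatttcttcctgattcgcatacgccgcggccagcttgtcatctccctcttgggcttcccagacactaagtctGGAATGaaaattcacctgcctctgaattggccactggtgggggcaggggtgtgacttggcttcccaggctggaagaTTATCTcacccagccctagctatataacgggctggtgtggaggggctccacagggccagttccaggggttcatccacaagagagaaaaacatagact
Ankrd2: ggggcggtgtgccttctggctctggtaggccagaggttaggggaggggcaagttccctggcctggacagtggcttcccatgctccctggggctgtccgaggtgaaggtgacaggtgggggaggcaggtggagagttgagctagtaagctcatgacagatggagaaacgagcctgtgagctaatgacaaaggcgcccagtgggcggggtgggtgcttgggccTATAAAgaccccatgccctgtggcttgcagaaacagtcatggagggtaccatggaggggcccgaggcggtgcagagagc
The Myh6 window holds 1 TATAAA match and 1 CATTCC match, the Myh4 window 2 TATAAA matches, 1 CATTCC match and 1 CAGCTG match, the Ankrd1 window 1 AGATAA match and 2 CATTCC matches and the Ankrd2 window 1 TATAAA match. Over the windows of all 27025 genes of the promoter table, 8.88% held TATAAA, 11.4% AGATAA, 14.6% CATTCC and 16.1% CAGCTG. Of the 10166 tested genes with a window, the shares were 4.78%, 6.51%, 12.1% and 15.3%. Among 97 of the 130 genes higher in heart by at least 3 units that had a window, 11.3% held TATAAA, 22.7% AGATAA, 23.7% CATTCC and 17.5% CAGCTG. For the 134 of 185 genes higher in gastrocnemius by at least 3 units with a window, the same shares were 13.4%, 4.48%, 14.9% and 25.4%. These matches describe letters in the windows only, and windows that share a motif were not tested for binding.

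In the thin filament, the troponin subunits that differ between the tissues were far apart. Tnni3, the cardiac inhibitory subunit, stood at 13.17, 13.30 and 13.40 in heart and 8.51, 4.77 and 4.34 in gastrocnemius (difference 7.42 ± 0.83 SE, adjusted p = 0.00415). Tnni2, the fast counterpart, stood at 13.61, 13.67 and 13.85 in gastrocnemius and 7.42, 10.53 and 9.63 in heart (difference -4.51 ± 0.55 SE, adjusted p = 0.00557). Neither gene overlapped between tissues, and each was most variable in the tissue where it was low. The gastrocnemius values of Tnni2 were also close to the array maxima. Tnnt2, which anchors cardiac troponin to tropomyosin, was higher in heart (difference 5.79 ± 0.93 SE, adjusted p = 0.0128), and Tnnt3, its fast counterpart, was higher in gastrocnemius (difference -3.67 ± 0.74 SE, adjusted p = 0.0257). Of the calcium binding subunits, Tnnc2 of fast fibres was higher in gastrocnemius (difference -3.39 ± 0.60 SE, adjusted p = 0.0173), and Tnnc1, shared by heart and slow fibres, did not pass (difference 0.74 ± 0.23 SE, adjusted p = 0.0823). Acta1, skeletal actin, was higher in gastrocnemius at 13.27, 13.12 and 13.07 against 9.78, 11.70 and 11.42 in heart (difference -2.18 ± 0.43 SE, adjusted p = 0.0241). Actc1, cardiac actin, did not pass at 13.26, 13.73 and 13.63 in heart and 12.69, 12.77 and 12.90 in gastrocnemius (difference 0.75 ± 0.22 SE, adjusted p = 0.0652). Of 6 cardiac type thin filament genes tested, 2 were higher in heart (2, 0, 2 in turn) and 4 did not pass, with a median of 0.74. Of 7 fast type genes tested, 6 were higher in gastrocnemius, Neb, the giant thin filament ruler nebulin, by the most (-4.79), and Lmod3 did not pass (-0.58), with a median of -3.39. Tnni3, Tnnt2 and Acta1 did not pass without animal 65 (adjusted p = 0.0562 to 0.0944). Tnnt3 did not pass without animal 66 (adjusted p = 0.0586).

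Among 21 counterpart pairs of a cardiac or general gene and a skeletal gene, both members were tested in 19. The skeletal member was higher in gastrocnemius in 17 pairs and the cardiac or general member was higher in heart in 9, and in those 9 both passed in opposite directions. The 9 pairs were the myosin heavy chains, myosin binding proteins C, troponins I, troponins T, ankyrin repeat proteins, ryanodine receptors, L-type calcium channels, calsequestrins and glycogen phosphorylases. In 8 further pairs only the skeletal member passed. In the lactate dehydrogenase and phosphoglycerate mutase pairs neither member passed, with 0.75 for Ldhb and -0.80 for Ldha, and 0.82 for Pgam1 and -0.77 for Pgam2. The sodium channel pair and Eno1 were not tested, and Eno3, muscle enolase, did not pass (difference -0.65 ± 0.21 SE, adjusted p = 0.0855). Some of the pair members that did not pass were bright in both tissues. The brightest probe set of each array lay between 13.79 and 13.95. Of 243 genes with a mean above 12 in both tissues, 1 passed (0.412%), against 18.2% of all genes. Means above 12 in both tissues under these maxima leave room for small differences only. That low share is therefore partly fixed by the choice of genes and does not show why a pair member did not pass. In the fit with trend and robust variance, which lets the spread depend on the level, 12 of the 13 pair members that had been tested without passing did pass (adjusted p = 0.00213 to 0.0126), among them Myl2, Tnnc1, Actc1, Atp2a2, Ldhb and Ldha, and Actn2 did not. In the same fit 4 of the 26 pair members that had passed no longer did, Myh6, Mylpf, Tnnt3 and Tnnc2 (adjusted p = 0.0537 to 0.0762). Outside the pairs, Myh7 and, of genes given below, Pln and Adipoq also no longer passed in that limma fit (adjusted p = 0.0596, 0.0587 and 0.0787).

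**Figure D3:**
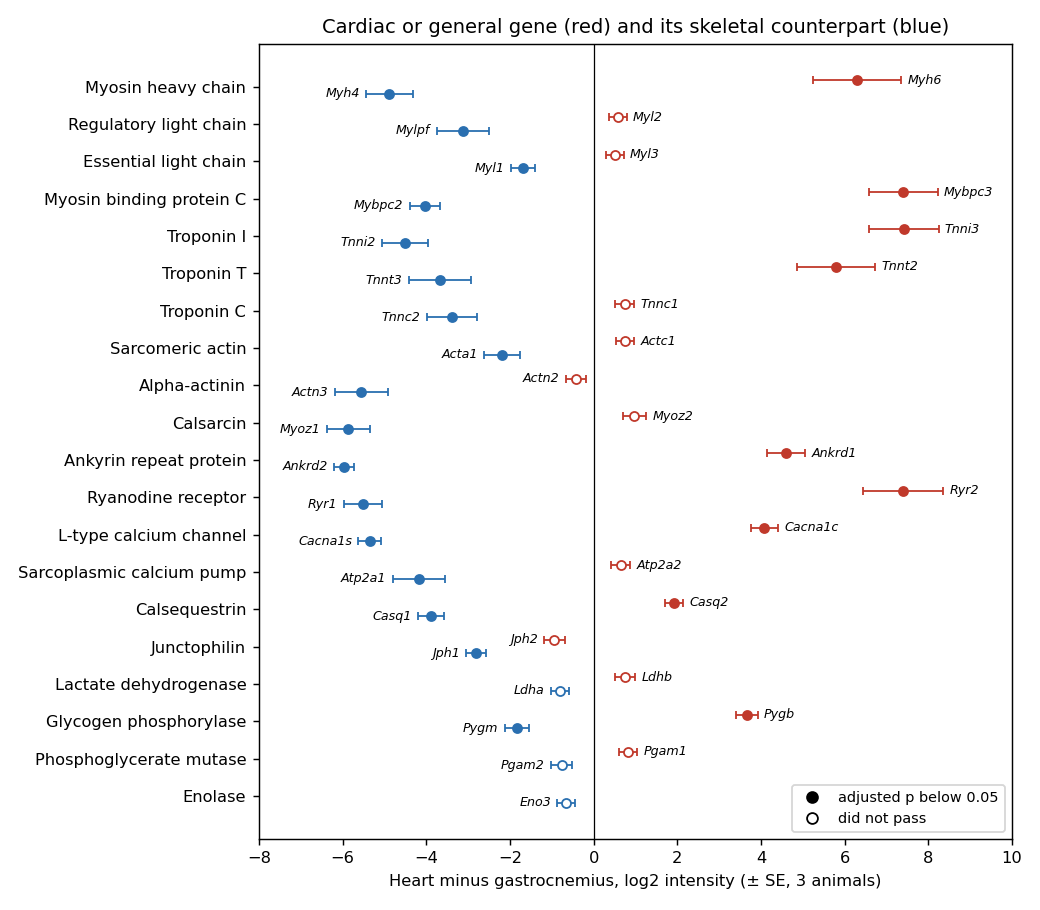
Heart minus gastrocnemius difference in log2 intensity (horizontal axis, bars are SE of the paired limma fit, 3 animals) for the cardiac or general member (red) and the skeletal member (blue) of each pair. Filled points passed an adjusted p below 0.05. Blue points are all below 0, and among red points those of shared slow fibre genes such as Myl2, Tnnc1 and Atp2a2 lie near 0.6 to 0.8 and are open.

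Slow fibre genes did not move together. Tnni1, slow troponin I, was higher in gastrocnemius at 10.10, 11.90 and 11.19 against 4.13, 5.27 and 4.69 in heart (difference -6.37 ± 0.24 SE, adjusted p = 0.000419), and Tnnt1, slow troponin T, was higher there at 12.05, 12.61 and 12.75 against 8.21, 9.30 and 8.72 (difference -3.72 ± 0.24 SE, adjusted p = 0.000838). With Myh7 they made 3 of the 11 slow fibre genes tested that were higher in gastrocnemius. Casq2, the calsequestrin of heart and slow fibres, was higher in heart (difference 1.92 ± 0.22 SE, adjusted p = 0.00427), as was Myh7b, a slow-type myosin (difference 2.25 ± 0.33 SE, adjusted p = 0.00984), and these were the 2 higher there (2, 0, 2 in turn). The other 6, among them Tpm3 (0.09), Myl2, Myl3 and Atp2a2, did not pass, and the list had a median of 0.58. Casq2 and Myh7b did not pass without animal 65 (adjusted p = 0.0548 to 0.0891).

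At the Z disc and M band, 9 of 24 genes tested were higher in gastrocnemius, 2 were higher in heart (1, 1, 1 in turn) and 13 did not pass, with a median of -0.70. The 2 higher in heart were Ankrd1 and Csrp3 (0.96), a Z disc protein. Myoz3 and Myoz1, calsarcins that bind calcineurin, were higher in gastrocnemius by 111-fold and 58.3-fold, with the mean of Myoz3 in heart under the 40th percentile. Myoz2, the cardiac and slow form, did not pass (difference 0.97 ± 0.28 SE, adjusted p = 0.0624). Actn3, the alpha-actinin of fast fibres, stood at 13.19, 13.19 and 13.40 in gastrocnemius and 5.84, 9.43 and 7.83 in heart (difference -5.56 ± 0.63 SE, adjusted p = 0.00436). Actn2, the alpha-actinin of all striated muscle, stood at 11.29, 11.93 and 12.41 in heart and 12.13, 12.28 and 12.50 in gastrocnemius, overlapped and did not pass (difference -0.43 ± 0.24 SE, adjusted p = 0.262). The stress-responsive ankyrin repeat genes went opposite ways. Ankrd1 had a mean of 12.25 ± 0.23 (SD, n = 3) in heart, animal 65 being the lowest, and stood at 9.28, 6.63 and 7.04 in the gastrocnemius of animals 61, 65 and 66 (difference 4.60 ± 0.46 SE, adjusted p = 0.00294). Ankrd2 stood at 4.85, 5.93 and 5.21 in heart and 10.79, 11.58 and 11.52 in gastrocnemius (difference -5.97 ± 0.24 SE, adjusted p = 0.000419). Their windows are printed above, and for both the tissues were separate. Xirp1, which lies at the Z disc and the intercalated disc, did not pass (difference -1.02 ± 0.29 SE, adjusted p = 0.0603). Csrp3 did not pass without animals 61, 65 or 66 (adjusted p = 0.0868 to 0.181).

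Of 32 calcium handling genes tested, 15 were higher in gastrocnemius and 8 in heart (8, 2, 7 in turn), with a median of -0.63. Ryr2, the cardiac calcium release channel, stood at 12.12, 12.45 and 12.35 in heart and 7.99, 3.28 and 3.47 in gastrocnemius (difference 7.39 ± 0.97 SE, adjusted p = 0.00678). Ryr1, the skeletal channel, stood at 12.97, 13.18 and 12.88 in gastrocnemius and 6.26, 8.94 and 7.29 in heart (difference -5.51 ± 0.46 SE, adjusted p = 0.00175). The L-type channel pores followed the same division, Cacna1c higher in heart (difference 4.08 ± 0.33 SE, adjusted p = 0.00161) and Cacna1s higher in gastrocnemius (difference -5.36 ± 0.27 SE, adjusted p = 0.000573). Their partners did too, the beta subunit Cacnb2 being higher in heart (4.22) and Cacng1 (-5.74) and the triad protein Jsrp1 (-5.10) higher in gastrocnemius. For uptake, the fast fibre pump Atp2a1 stood at 13.56, 13.39 and 13.19 in gastrocnemius and 7.55, 10.94 and 9.10 in heart (difference -4.18 ± 0.63 SE, adjusted p = 0.0105). Atp2a2, the pump of heart and slow fibres, stood at 13.01, 13.17 and 13.12 in heart and 12.60, 12.23 and 12.52 in gastrocnemius without passing (difference 0.65 ± 0.23 SE, adjusted p = 0.102). Pln, phospholamban, which restrains Atp2a2, stood at 12.82, 12.79 and 12.76 in heart and 10.47, 5.32 and 5.33 in gastrocnemius (difference 5.75 ± 1.00 SE, adjusted p = 0.0168). By its brightest probe set the pump was thus near the top of the scale in both tissues. Its inhibitor was low in the gastrocnemius of animals 65 and 66 and not in that of animal 61. Averaged over all tested probe sets of Atp2a2, the difference was 1.63, larger than the 0.65 of the brightest. Casq1, the fast calsequestrin, and Jph1, a junctophilin of the triad, were higher in gastrocnemius (-3.89 and -2.80), and Jph2, which heart shares, did not pass (difference -0.94 ± 0.25 SE, adjusted p = 0.0553), nor did Camk2d, a calcium-dependent kinase of heart (0.88). Ryr2, Cacnb2 and Pln did not pass without animal 65 (adjusted p = 0.0671 to 0.13).

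Ion channels gave 14 of 26 genes tested higher in heart (13, 9, 9 in turn) and 6 higher in gastrocnemius, with a median of 1.17. Potassium channel genes of cardiac repolarization made up the largest heart differences besides Kcnj5. Kcnip2 and Kcnd2, subunits of the transient outward current, differed by 5.85 and 5.48, and Kcnj3, the partner of Kcnj5, by 5.76. Kcnd2 stood at 8.45, 9.99 and 8.92 in heart and 4.03, 3.37 and 3.51 in gastrocnemius, all gastrocnemius values being under the 40th percentile. The genes higher in gastrocnemius included Clcn1, the chloride channel that stabilizes the resting skeletal fibre, at 6.76, 8.23 and 8.50 against 3.56, 4.41 and 3.88 in heart (difference -3.88 ± 0.31 SE, adjusted p = 0.00161). Kcnc1 (-5.61) and Kcna7 (-3.61), voltage-gated potassium channels, and Atp1b2 (-3.86), a sodium pump subunit, were also higher in gastrocnemius. Kcnj11, the pore of the ATP-sensitive channel, and Kcnj12 did not pass (-0.51 and -0.84).

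Of 18 cardiac transcription factor genes tested, 11 were higher in heart (11, 6, 10 in turn), 2 were higher in gastrocnemius (2, 0, 2 in turn) and 5 did not pass, with a median of 1.66. Tbx20 stood at 11.34, 11.10 and 11.02 in heart and 6.73, 3.28 and 2.66 in gastrocnemius (difference 6.93 ± 0.71 SE, adjusted p = 0.00318). Gata4 stood at 8.46, 9.38 and 9.25 in heart and 4.65, 4.23 and 3.87 in gastrocnemius (difference 4.78 ± 0.35 SE, adjusted p = 0.00124). Hand2 differed by 4.33 and Irx4, a ventricular factor, by 4.14. The 2 higher in gastrocnemius were Mef2c (difference -1.48 ± 0.21 SE, adjusted p = 0.00876), a factor of both muscle types, and Isl1 (difference -2.67 ± 0.43 SE, adjusted p = 0.0126), a progenitor factor that motor neurons and other cells also use. Nkx2-5, a defining cardiac factor, did not reach the level needed for testing, at a mean of 5.42 in heart and 3.28 in gastrocnemius. Irx3 and Meis1 did not pass (1.51 and 0.80). Mef2c and Isl1 did not pass without animal 65 (adjusted p = 0.0781 to 0.0812).

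Skeletal muscle transcription factors gave 12 of 15 genes tested higher in gastrocnemius, 3 that did not pass and a median of -3.92. Myf6, the myogenic factor most expressed in adult fibres, stood at 10.83, 10.72 and 11.51 in gastrocnemius and 3.35, 6.35 and 5.83 in heart (difference -5.84 ± 0.56 SE, adjusted p = 0.00259). Myog, which drives fibre differentiation, stood at 7.97, 9.92 and 8.20 in gastrocnemius and 3.55, 3.86 and 2.94 in heart (difference -5.25 ± 0.34 SE, adjusted p = 0.00085). The hearts were all below the 40th percentile for Myog, and the heart of animal 65 was the highest for both genes. Myod1 and Myf5, the determination factors, differed by -4.03 and -4.33, and Tbx15, a factor of fast fibres, by -5.10. Six2 and Heyl did not pass (-1.06 and 0.66). Of 11 hindlimb position genes tested, 10 were higher in gastrocnemius, with a median of -4.31. Hoxc10, Hoxa10 and Hoxd10, of posterior limb patterning, differed by -6.55, -5.69 and -4.81, and Hoxc10 stood at 3.61, 4.22 and 2.89 in heart. All hearts were thus below the 40th percentile for Hoxc10, and Hoxc6 did not pass (-0.62). Myod1 did not pass without animal 65 (adjusted p = 0.0718).

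Among secreted factors of the heart, Nppa, Nppb and Corin made up the 3 of 9 tested that were higher in heart. Nppa, the atrial natriuretic peptide gene, stood at 12.21, 12.30 and 13.07 in heart and 7.32, 4.73 and 3.90 in gastrocnemius (difference 7.21 ± 0.75 SE, adjusted p = 0.00338). Nppb, the B-type peptide gene, stood at 10.87, 11.64 and 11.75 in heart and 5.33, 3.60 and 3.57 in gastrocnemius (difference 7.25 ± 0.54 SE, adjusted p = 0.00126). For both, the heart of animal 66 was the highest and the gastrocnemius of animal 61 was the highest of its tissue. Agt, angiotensinogen, was the 1 higher in gastrocnemius (1, 0, 1 in turn) (difference -1.87 ± 0.27 SE, adjusted p = 0.00884), 5 did not pass, among them Ace (-0.83) and Wif1 (-0.98), and the list median was 0.62, and 0.59, 0.84 and 0.39 in turn. Of 13 receptor and second messenger genes tested, 6 were higher in heart (6, 3, 5 in turn), 2 were higher in gastrocnemius (2, 1, 1 in turn) and 5 did not pass, with a median of 0.51. Adcy5, a cardiac adenylyl cyclase, differed by 2.66, Agtr1a, the angiotensin receptor, by 1.99, Pde3a by 1.95 and Rgs6, which shortens vagal signals, by 1.91. The 2 higher in gastrocnemius were Pde4d (-2.49), a cyclic AMP phosphodiesterase, and Ptger3 (-2.23), a prostaglandin receptor, and Gnao1 and Rgs5 did not pass (0.44 and 0.51). Nppa, Agt, Rgs6 and Ptger3 did not pass without animal 65 (adjusted p = 0.0518 to 0.213). Rgs6 and Ptger3 did not pass without animal 66 (adjusted p = 0.0603 to 0.107).

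Cell junction genes divided into those of the intercalated disc and those of the nerve endplate. Of 16 intercalated disc genes tested, 9 were higher in heart and 7 did not pass, with a median of 1.32. Dsp, desmoplakin, stood at 12.64, 12.19 and 12.38 in heart and 9.39, 3.99 and 5.03 in gastrocnemius (difference 6.27 ± 0.91 SE, adjusted p = 0.00932). Pkp2, plakophilin of the same desmosomes, stood at 11.57, 11.10 and 11.26 in heart and 7.29, 5.58 and 5.82 in gastrocnemius (difference 5.08 ± 0.31 SE, adjusted p = 0.000784). The desmosomal cadherins Dsc2 and Dsg2 differed by 5.54 and 4.33, whereas Tjp1, a tight junction scaffold, did not pass (0.61). For these 4 desmosome genes the highest gastrocnemius value came from animal 61, except Dsc2, where it came from animal 66. Of 16 neuromuscular junction genes tested, 6 were higher in gastrocnemius (5, 3, 8 in turn) and 10 did not pass, with a median of -0.98. Chrna1 and Chrne, subunits of the adult acetylcholine receptor, differed by -4.04 and -3.15, Musk, the receptor kinase that clusters them, by -2.86 and Ache, which degrades the transmitter, by -2.11. Agrn, the nerve signal for clustering, and Ufsp1 did not pass (0.79 and -1.13). Dsp and Ache did not pass without animal 65 (adjusted p = 0.0807 to 0.0921).

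The dystrophin complex ties the cytoskeleton to the matrix in both tissues. Of 18 genes tested, 3 were higher in gastrocnemius (2, 1, 2 in turn) and 15 did not pass, a share near the 18.2% of all genes, and the median was -0.22, and -0.24, -0.012 and -0.24 in turn. Dmd, dystrophin itself, named here after its values were seen, did not pass with means of 9.96 in heart and 10.16 in gastrocnemius (difference -0.21), and Sspn and Dtna did not pass either (0.66 and 0.63). The 3 that passed were Nos1, the neuronal nitric oxide synthase docked to the complex, at 8.74, 7.76 and 7.85 in gastrocnemius and 5.12, 4.03 and 3.58 in heart (difference -3.87 ± 0.24 SE, adjusted p = 0.000783), Plec, plectin (difference -1.67 ± 0.40 SE, adjusted p = 0.0418), and Sgca, alpha-sarcoglycan (difference -0.98 ± 0.22 SE, adjusted p = 0.0351). Nos1 did not overlap between tissues, whereas Sgca values overlapped across animals and differed within each. Sgca did not pass without animals 61 or 66 (adjusted p = 0.0784 to 0.0821). Plec and Sgca did not pass without animal 65 (adjusted p = 0.161 to 0.182).

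Fuel genes divided by pathway. Of 30 fatty acid genes tested, 12 were higher in heart (9, 0, 4 in turn), 2 were higher in gastrocnemius (1, 1, 2 in turn) and 16 did not pass, with a median of 0.83. Etfdh, which passes electrons from fat oxidation to the respiratory chain, stood at 11.85, 12.28 and 12.15 in heart and 10.36, 10.31 and 10.81 in gastrocnemius (difference 1.60 ± 0.23 SE, adjusted p = 0.00972). Plin5, a lipid droplet protein, differed by 1.49, Echs1, a beta-oxidation enzyme, by 1.41 and Ppargc1a, a coactivator of mitochondrial genes, by 1.39. The 2 higher in gastrocnemius were Ucp3 (-2.15), the muscle uncoupling protein, and Ppard (-1.19), a nuclear receptor for fatty acids, and Eci1 and Acot2 did not pass (0.86 and 0.96). Of 51 respiratory chain and ATP synthase genes tested, 0 passed in limma, 10 had an unadjusted p below 0.05, all higher in heart, and 47 had a difference above 0, with a median of 0.30 and a range of -0.25 to 0.86. Of all genes, 36.5% had an unadjusted p below 0.05 in either direction. The limma fit with trend and robust variance called 19 of the list higher in heart, against 1860 of all 12628 genes. A fit without the 2 animals that stood apart in other genotypes, added after the data were seen, called 8, against 2008 of all genes. The share in that last fit was near the share of all genes. Genes bright in both tissues seldom passed the paired fit, a share partly fixed by their choice, as given above. The part of brightness in the list was not tested. Cox8a and Ndufs1, subunits of complexes IV and I, had differences of 0.86 and 0.72. Of 21 citric acid cycle genes tested, 2 were higher in heart (2, 0, 1 in turn), Idh2 (1.50) and Dld (1.15), and 19 did not pass, among them Suclg2 (0.89) and Fh1 (0.67), with a median of 0.36, and 0.43, 0.20 and 0.31 in turn. The share higher in heart was near the 9.67% of all genes, and averaged over its tested probe sets Idh2 differed by 0.60. Of 18 ketone and branched-chain amino acid genes tested, 4 were higher in heart (4, 0, 1 in turn), including Ppm1k (1.82), the phosphatase that activates branched-chain breakdown, and Oxct1 (0.95), which starts ketone oxidation, with a median of 0.50. Mccc1 (1.14) and Hibch (0.99) were the other two, and Ivd and Mmut did not pass (0.92 and 0.86). Ppard and Oxct1 did not pass without animal 61 (adjusted p = 0.0598 to 0.104). Etfdh, Plin5, Echs1, Ppargc1a, Ppard, Idh2, Dld, Ppm1k, Oxct1, Mccc1 and Hibch did not pass without animal 65 (adjusted p = 0.0731 to 0.222). Dld, Oxct1, Mccc1 and Hibch did not pass without animal 66 (adjusted p = 0.0754 to 0.11).

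Glycolysis and glycogen genes gave 14 of 34 tested higher in gastrocnemius (11, 6, 11 in turn), 6 higher in heart (5, 3, 4 in turn) and 14 that did not pass, with a median of -0.75. Slc16a3, the lactate exporter of fast fibres, stood at 10.72, 11.40 and 10.34 in gastrocnemius and 4.75, 6.17 and 5.91 in heart (difference -5.21 ± 0.33 SE, adjusted p = 0.000821). Gpd1, of the glycerol phosphate shuttle, differed by -3.08, Phka1, a subunit of the kinase that activates glycogen phosphorylase, by -3.0 and Pfkfb4 by -3.20. In heart, other isoforms of the same steps were higher. Pygb, the brain-type glycogen phosphorylase, stood at 11.50, 11.84 and 11.97 in heart and 7.55, 7.94 and 8.83 in gastrocnemius (difference 3.67 ± 0.26 SE, adjusted p = 0.00107), and Pygm, the muscle type, stood at 10.15, 11.18 and 11.45 in heart and 12.70, 12.68 and 12.89 in gastrocnemius (difference -1.83 ± 0.29 SE, adjusted p = 0.0128). Pfkfb2, the cardiac form of the enzyme that makes the phosphofructokinase activator, differed by 2.56, and Pfkp and Pfkl, non-muscle phosphofructokinases, by 2.24 and 1.95. Of 14 high energy phosphate and purine genes tested, 5 were higher in gastrocnemius (4, 3, 3 in turn), led by Ampd1 and followed by Adssl1 (-2.33) of the purine cycle and Ckm (-2.18), muscle creatine kinase, and by Ampd2 (-1.44). Slc25a5 (1.22) and Ak4 (1.66) were the 2 higher in heart (2, 0, 1 in turn), and Ckb and Ak1 did not pass (1.01 and -0.78). The median was 0.12, and 0.20, 0.10 and -0.027 in turn. Pygm, Pfkp, Ampd2, Slc25a5 and Ak4 did not pass without animal 65 (adjusted p = 0.0568 to 0.165). Ampd2 and Slc25a5 did not pass without animal 66 (adjusted p = 0.0639 to 0.0843).

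Of 20 genes of muscle mass and proteolysis tested, 9 were higher in gastrocnemius, 1 was higher in heart (1, 0, 1 in turn) and 10 did not pass, with a median of -0.92. Capn3, the skeletal muscle calpain, stood at 11.10, 10.39 and 10.94 in gastrocnemius and 5.59, 6.60 and 6.03 in heart (difference -4.74 ± 0.36 SE, adjusted p = 0.00129). Klhl40 and Kbtbd13, skeletal muscle ubiquitin ligase adaptors, differed by -3.96 and -3.23, and Smox, a polyamine oxidase, by -3.15. Sesn1, a stress-induced regulator of growth signalling, was the 1 higher in heart (1.33), and Foxk1 and Trim54 did not pass (-0.82 and -1.02). Of 13 satellite cell and regeneration genes tested, 9 were higher in gastrocnemius (8, 5, 7 in turn), with a median of -1.88. Pax7, which marks satellite cells, the stem cells of skeletal muscle, stood at 7.03, 7.92 and 6.29 in gastrocnemius and 3.56, 3.03 and 2.90 in heart (difference -3.92 ± 0.35 SE, adjusted p = 0.0021). Vcam1 and Runx1 did not pass (1.28 and -0.45). Of 8 imprinted growth genes tested, 3 were higher in gastrocnemius (3, 0, 1 in turn), Rian (-1.59), Cdkn1c (-1.41) and Meg3 (-1.15), and 5 did not pass, among them Peg3 (-0.81) and Mest (0.45), with a median of -0.46. Sesn1, Rian, Cdkn1c and Meg3 did not pass without animal 65 (adjusted p = 0.0679 to 0.16). Rian and Meg3 did not pass without animal 66 (adjusted p = 0.0515 to 0.0582).

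**Figure D4:**
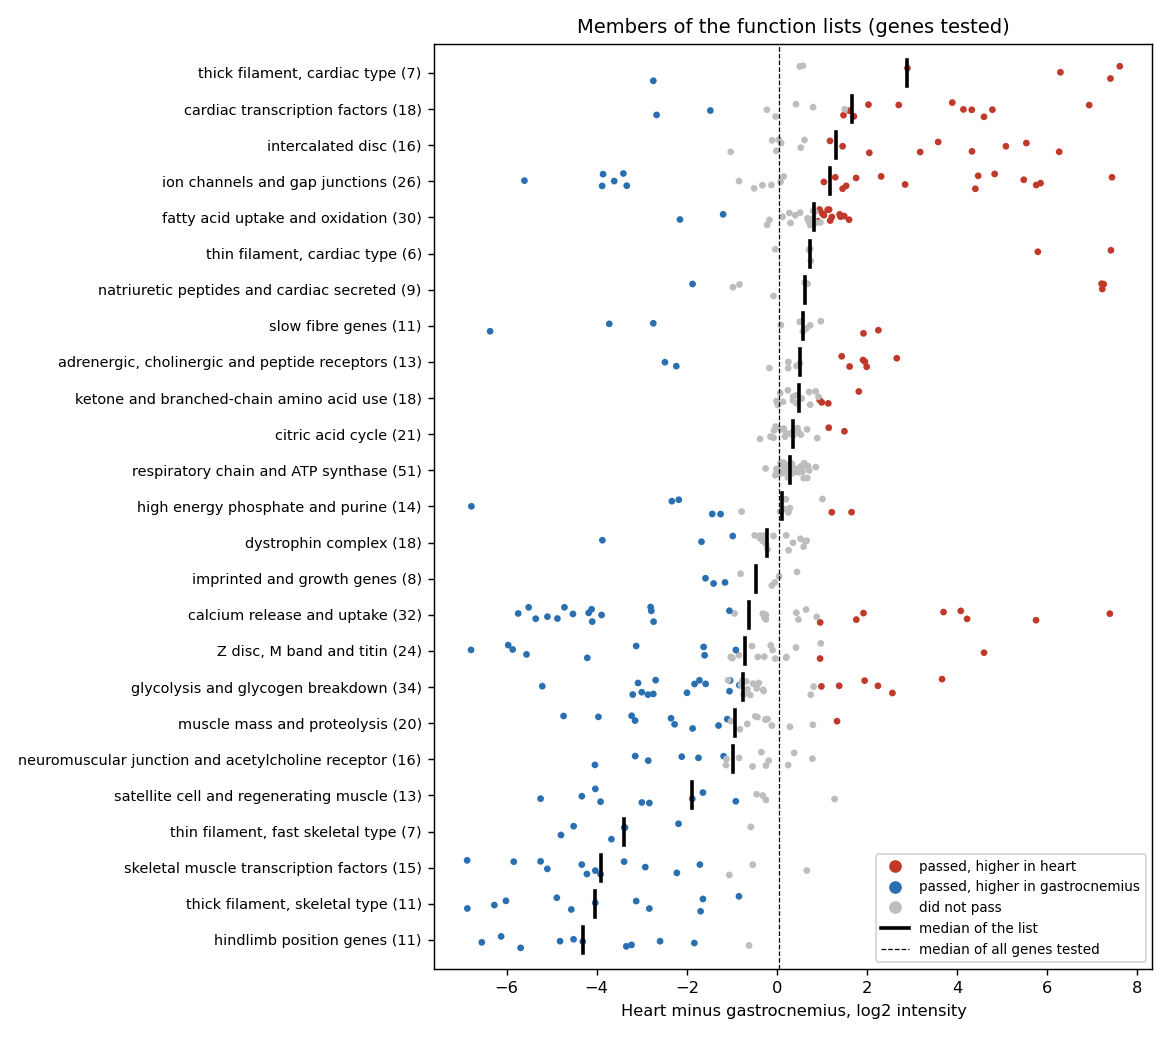
Heart minus gastrocnemius difference in log2 intensity (horizontal axis) of each gene tested in 25 function lists, with the number tested in brackets, ordered by the list median (black bar). Red points passed higher in heart and blue points higher in gastrocnemius, and the dashed line is the median of all genes tested, 0.04. Both sarcomere lists of skeletal type and the skeletal muscle transcription factor and hindlimb lists lie at medians of -3.39 to -4.31, whereas the respiratory chain lies close to 0.30.

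Markers of heart regions and of other cells were read the same way. Of 10 cardiomyocyte markers tested, 7 were higher in heart (7, 1, 7 in turn) with a median of 6.04, and all 11 fast fibre markers were higher in gastrocnemius, so each tissue carried the markers its label names. The heart arrays held markers of both chambers: 8 of 9 atrial markers tested were higher in heart (7, 4, 6 in turn, median 2.90), and of 8 ventricular markers 5 were higher (5, 3, 5 in turn) and 1, Myh7, was lower (1, 0, 1 in turn, median 3.09). Fgf12, a modulator of sodium channels, passed among the atrial markers (3.75) and Kcne1, a potassium channel subunit, among the ventricular ones (4.41), while Stard10 did not pass (-0.21). Of 6 slow fibre markers, 3 were higher in gastrocnemius and 1 in heart (1, 0, 1 in turn, median -1.52), with Myl6b not passing (-0.29). Epicardial and mesothelial markers gave 7 of 9 higher in heart (7, 3, 7 in turn, median 2.60). Among them, Wt1, a factor of the epicardium, stood at 8.43, 7.62 and 7.26 in heart and 4.37, 2.85 and 2.51 in gastrocnemius (difference 4.52 ± 0.25 SE, adjusted p = 0.000641), and Upk3b, Tcf21 and Bnc1 differed by 4.22, 4.37 and 3.21. The keratins Krt8 and Krt19 did not pass (0.67 and 1.64). Of 18 endothelial markers, 8 were higher in heart (3, 1, 2 in turn) and 10 did not pass (median 0.64), with Emcn (2.09), a capillary and venous sialomucin, and Kdr (1.50), the main VEGF receptor, among the 8, and Eng (1.33) and Car4 (1.50), an endothelial carbonic anhydrase, passed although their tissue values overlapped across animals. Ptprb and Robo4 did not pass (0.68 and 0.61), and the 24-array fit called 0 of the 18. Eng did not pass without animal 61 (adjusted p = 0.0598). Tcf21, Bnc1, Kdr, Eng and Car4 did not pass without animal 65 (adjusted p = 0.0559 to 0.16). Bnc1, Kdr and Eng did not pass without animal 66 (adjusted p = 0.0595 to 0.0814).

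In gastrocnemius, 8 of 10 tendon markers were higher (median -2.63), including Col22a1, a collagen of the muscle and tendon junction, at 10.90, 10.44 and 10.47 against 5.74, 5.49 and 5.94 in heart (difference -4.88 ± 0.23 SE, adjusted p = 0.000556), Tnmd, tenomodulin (difference -4.32 ± 0.29 SE, adjusted p = 0.000926), Chad (-4.02) and Mkx (-3.89), a tendon homeobox gene. Scx and Comp did not pass (-0.54 and -0.46). Of 7 Schwann and nerve markers, 4 were higher there (3, 2, 4 in turn, median -1.79), led by Mbp, myelin basic protein, at 10.70, 10.90 and 11.18 against 4.83, 5.76 and 5.79 in heart (difference -5.47 ± 0.24 SE, adjusted p = 0.000454). Ncmap, Sox10 and Cnp differed by -2.70, -1.99 and -1.79, and Pmp22 and Scn7a did not pass (-0.40 and 0.81). Fibroblast markers were divided, with 2 of 12 higher in gastrocnemius (1, 0, 2 in turn), Col1a2 (-1.62) and Col1a1 (-1.31), and 2 higher in heart (2, 0, 1 in turn), Lum (1.50) and Tcf21. The other 8 did not pass, such as Dcn (0.46) and Mfap5 (0.54) (median -0.15, and -0.13, -0.073 and -0.13 in turn). Of 10 smooth muscle and pericyte markers, 1 passed, Kcnj8, higher in heart (0, 0, 0 in turn) (1.04), and Acta2 did not pass (0.50). That share was near the 9.67% of all genes higher in heart. The median of that list was 0.06, and -0.10, 0.16 and 0.18 in turn, and -0.03 after quantile normalization. Sox10, Col1a1 and Kcnj8 did not pass without animal 61 (adjusted p = 0.0565 to 0.0722). Sox10, Cnp, Col1a2, Col1a1, Lum and Kcnj8 did not pass without animal 65 (adjusted p = 0.0674 to 0.178). Lum and Kcnj8 did not pass without animal 66 (adjusted p = 0.0503 to 0.0653).

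Adipocyte and lymphocyte signals were highest in 1 gastrocnemius array. Lep, leptin, stood at 5.52, 7.96 and 9.82 in the gastrocnemius of animals 61, 65 and 66 and 3.60, 3.55 and 3.47 in heart (difference -4.22 ± 0.77 SE, adjusted p = 0.0189), and Adipoq, adiponectin, at 8.33, 10.24 and 11.72 and 7.53, 6.66 and 6.41 (difference -3.23 ± 0.79 SE, adjusted p = 0.0425). With Retn (-3.46), these were the 3 of 8 adipocyte markers that were higher in gastrocnemius (6, 0, 3 in turn, median -3.08, and -3.98, -3.06 and -1.87 in turn), and Cidec and Pck1 did not pass (-3.30 and -2.93). The gastrocnemius of animal 66 had the highest summed linear adipocyte signal, 16812 against 5478 and 7133 in animals 61 and 65, and also the highest B cell sum, 11573 against 1480 and 2366, and T cell sum, 2633 against 574 and 418. In the hearts of animals 61, 65 and 66 the adipocyte sums were 8312, 7909 and 8440, the B cell sums 2457, 3075 and 3504 and the T cell sums 318, 269.9 and 364. In animals 61 and 65 the adipocyte and B cell sums were thus higher in heart than in gastrocnemius, and the T cell sum was higher in gastrocnemius. A linear sum is set mostly by its brightest members, and the adipocyte list shares Fabp4 with the endothelial list. Lep and Adipoq were higher in gastrocnemius in those animals also. Over all animals, 2 of the 8 adipocyte markers had a difference above 0. Ighm, the heavy chain of IgM, was the 1 of 4 B cell markers higher in gastrocnemius (2, 0, 0 in turn) (difference -2.42 ± 0.55 SE, adjusted p = 0.0349), and Thy1, which fibroblasts and nerve also express, the 1 of 5 T cell markers (1, 0, 1 in turn) (difference -1.37 ± 0.22 SE, adjusted p = 0.0129). Cd79b (-1.28), Jchain (-1.18), Cd3e (-1.08) and Cd4 (-0.66) did not pass. The medians were -1.23, and -2.73, -1.60 and 0.64 in turn, for B cell markers and -0.99, and -1.24, -1.43 and 0.13 in turn, for T cell markers, and both were above 0 only without animal 66. Of 14 macrophage markers 0 passed in limma (0, 0, 2 in turn), 5 had an unadjusted p below 0.05, all higher in heart, and the trend and robust fit called 2 higher in heart (median 0.53, and 0.21, 0.46 and 0.75 in turn). Of all genes, 36.5% had an unadjusted p below 0.05 in either direction, and the trend and robust fit called 1860 of 12628 higher in heart. Both macrophage counts were near those shares. Fcgr1 and C1qc differed by 1.14 and 0.80. Of 2 blood markers, Alas2 and Slc4a1, 0 passed and 0 had an unadjusted p below 0.05 (1.31 and -0.60, median 0.35, and -0.30, 1.18 and 0.18 in turn), and the trend and robust fit likewise called 0. Lep, Adipoq, Retn, Ighm and Thy1 did not pass without animal 65 (adjusted p = 0.0918 to 0.215). Adipoq and Ighm did not pass without animal 66 (adjusted p = 0.0501 to 0.0897).

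Lists of genes that respond to stimulation, stress, time of day or interferon were read last. In the paired fit, 9.67% of all genes passed higher in heart and 8.52% higher in gastrocnemius. Of 16 immediate early genes tested, 2 were higher in gastrocnemius (2, 1, 3 in turn), Nr4a1 (-2.48) and Fosb (-1.55), and 14 did not pass, among them Fos at 9.57, 9.98 and 8.65 in heart and 9.97, 11.21 and 8.91 in gastrocnemius and Myc (-1.10) (median -0.30). Of 13 heat shock and unfolded protein genes, 1 was higher in heart (2, 0, 0 in turn), Hspa5, the main chaperone of the endoplasmic reticulum (1.13), and Ddit3 and Hsp90aa1 did not pass (0.82 and 0.66), with a median of -0.04, and 0.042, -0.10 and 0.038 in turn. Of 15 clock genes, 0 were higher in heart (1, 0, 0 in turn), 2 were higher in gastrocnemius (1, 0, 4 in turn), Nfil3 (-1.96) and Per1 (-1.19), and 13 did not pass, such as Cry2 (-1.34) and Clock (0.79) (median -0.45, and -0.61, -0.63 and -0.83 in turn). The trend and robust fit called 1 clock gene higher in heart and 7 higher in gastrocnemius, and 4 heat shock genes higher in heart, against 1860 and 1462 of all 12628 genes. Of 10 interferon response genes, 2 were higher in heart (2, 0, 4 in turn), Rsad2 (2.13) and Oas2 (1.09), and 8 did not pass, among them Oasl2 (1.30) and Ifit1 (0.73) (median 0.77, and 0.44, 0.59 and 1.22 in turn). Per1 did not pass without animal 61 (adjusted p = 0.061). Fosb, Hspa5, Nfil3, Per1, Rsad2 and Oas2 did not pass without animal 65 (adjusted p = 0.0536 to 0.195). Hspa5, Per1 and Oas2 did not pass without animal 66 (adjusted p = 0.052 to 0.0699).

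The same paired comparison was made in the other genotypes, which share no array with the wild type. In mdx mice, 7216 probe sets passed (26%), and 3419 of the 4570 wild type calls (74.8%) passed there in the same direction, with 97.5% of the calls and 77.8% of all tested probe sets sharing their sign. In Cmah knockout mice, 0 probe sets passed in limma, 2300 (8.3%) had an unadjusted p below 0.05, and 85.8% of the wild type calls and 61.4% of all probe sets shared their sign, while the fit without the animal block called 111 of the wild type calls in the same direction. The heart of animal 10 of that group, its replicate 3, stood apart, with a 3′ to 5′ Gapdh difference of 4.29. Without that animal, 2672 probe sets passed (9.64%), and 2183 of the wild type calls (47.8%) passed in the same direction, with 99.0% of the calls and 82.8% of all probe sets sharing their sign. In Cmah knockout mdx mice, of which 1 heart stood apart in the same way (4.43), 850 probe sets passed (3.07%) and 726 of the wild type calls (15.9%) passed in the same direction, with 90.5% of the calls and 66.2% of all probe sets sharing their sign. For the genes that passed in wild type, the median ratio of the other difference to the wild type difference was 0.836 in mdx and 0.923 in the Cmah knockout without animal 10. Choosing genes that passed in wild type tends to enlarge the wild type difference, so a ratio below 1 can arise without a genotype effect. Strain label and dystrophin loss cannot be told apart in the mdx groups.

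**Figure D5:**
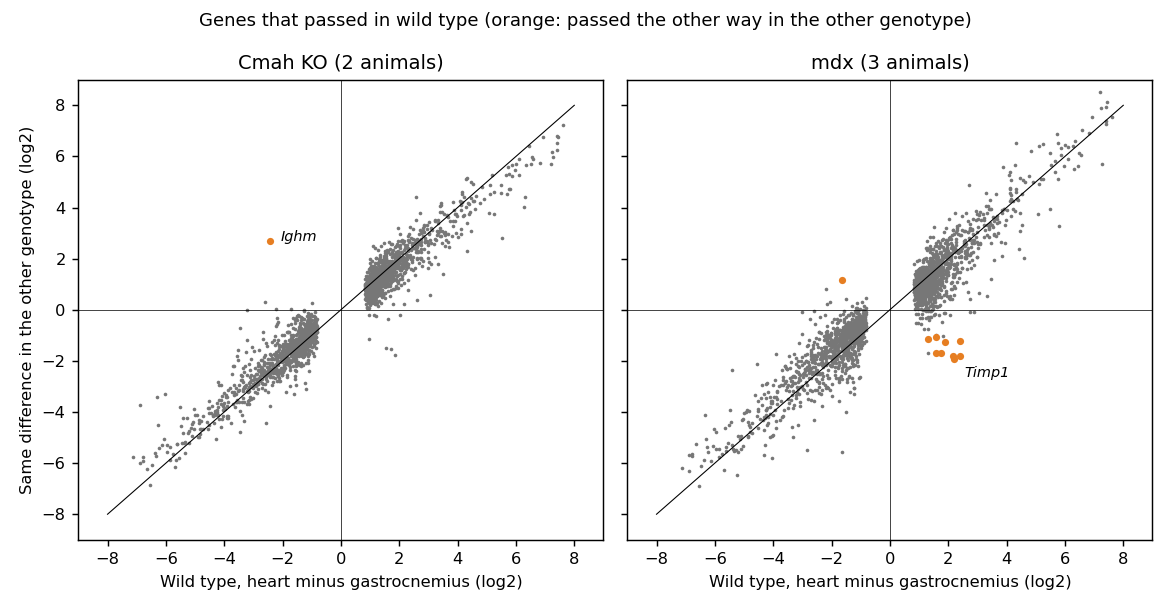
Heart minus gastrocnemius difference in log2 intensity of the 2297 genes that passed in wild type (horizontal axes) against the same difference in Cmah knockout mice without animal 10 (left, 2 animals) and in mdx mice (right, 3 animals), with the line of equality. Orange points passed in the opposite direction in the other genotype, such as Ighm on the left and Timp1 on the right, and the other points lie mostly along the line, with 99.4% and 97.3% of genes sharing their sign.

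A test of the difference between tissue differences, the interaction of tissue and genotype over 24 arrays in limma, passed for 0 probe sets against each genotype, with unadjusted p below 0.05 for 615 (2.22%), 617 (2.23%) and 1652 (5.96%) against Cmah knockout, mdx and Cmah knockout mdx. In mdx, 16 probe sets of 13 named genes passed in the direction opposite to wild type, 15 of them higher in heart in wild type. The 13 included matrix genes such as Timp1, an inhibitor of matrix proteases, Postn, periostin, and Ltbp2, and genes of phagocytes such as Ms4a7, Fcgr4 and C3ar1, chosen after their values were seen. Timp1 differed by 2.18 in wild type and -1.92 in mdx, and its interaction had an unadjusted p of 0.000135 and an adjusted p of 0.491. Postn differed by 1.75 and -1.68, with an interaction adjusted p of 0.513. Leaving out the 2 animals whose hearts stood apart, an alternative added after the data were seen, 5 probe sets passed against mdx, among them Timp1 and Nox4 (adjusted p = 0.0436 for both), and 8 against Cmah knockout mdx. The trend and robust fit called 4 and the fit without the animal block 1 against Cmah knockout mdx, and no setting called any against Cmah knockout. Timp1 was also the 1 probe set that passed opposite to wild type in Cmah knockout mdx, by -3.42. Ighm, higher in wild type gastrocnemius, was the 1 probe set that passed the other way in the Cmah knockout without animal 10 (2.68, interaction adjusted p = 0.639).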

How the data were processed

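Heart and gastrocnemius RNA of 3 wild type mice was measured on Affymetrix mouse arrays with 45101 probe sets. The authors deposited 1 linear intensity per probe set and array, and per the submitters' processing notes GCOS and RMA were used, with no version or role given. Normalization of this kind puts all arrays on a common scale, so a change shared by most genes cannot be seen. The log2 of the deposited intensity was taken here, with no further normalization. The 64 control probe sets were left out, and 34945 of the other 45037 carried 1 gene symbol, 932 several and 9160 none in GEO's platform annotation; 34741 matched a gene ID of the RefSeq table of GRCm38.p6, whose symbols were used. Testing needed values above the 40th percentile (log2 4.68) on 3 or more of the 6 arrays, and a gene was read from its brightest probe set with 1 symbol.

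Tissues were compared with limma 3.58.1 in R 4.3.3 (two-sided, animal as a block, 2 residual degrees of freedom, Benjamini-Hochberg over all probe sets tested, adjusted p below 0.05); interactions used 24 arrays (8 residual degrees of freedom). Depth does not apply to arrays. Animals were paired by the number in the description label, since the title numbers cross animals. Deviations from the tissue mean correlated at 0.53, 0.48 and 0.59 within animals 66, 65 and 61, and at -0.45 to 0.04 between tissues of different animals. Each tissue was centred on its own mean, so positive values within animals push the others down and this contrast is partly fixed. Named genes were all counterpart pairs, the 15 largest called differences each way and, per list, up to 4 called members each way and up to 2 with the smallest p that did not pass. Of 737 list entries, 679 had a probe set with 1 symbol and 646 were tested. Members, pairs and lists were chosen with earlier results of these data known. Promoters came from RefSeq. Alternatives were other filters, normalizations, blocks and variance models, and each animal left out; the fit was tested on simulated data.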

Additional observations from a re-analysis of the deposited data

How the results depend on the processing

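The paired count of 2679 probe sets higher in heart and 1891 higher in gastrocnemius was 893 and 795 with no replicate block, 455 and 473 with the title number as the block, 836 and 861 with all 24 arrays in the fit, and 403 and 426 for a difference above 1 (limma's treat). With all arrays but those of the 2 animals whose hearts stood apart, an alternative chosen after seeing the data, the counts were 4413 and 3022. Leaving out each animal gave 424 to 2182 and 442 to 1632, lowest without animal 65. The counts stayed within 1.5 times for no filter, a 60th percentile filter, quantile normalization, median centring and the trend and robust fit. Of the wild type calls, 0 were called the same way in Cmah knockout mice, 111 with no paired block and 127 to 2183 when each animal was left out. Interactions, 0 in the fit used, came to 5 in mdx and 8 in Cmah knockout mdx without those 2 animals, and in Cmah knockout mdx to 4 with trend and robust variance and 1 with no block. Of 168 named genes that passed, 136 passed unpaired, 156 with no filter, 103 without animal 65 and 161 with trend and robust variance, under which 42 of the 80 other named genes also passed; no named gene that passed changed sign. Averaging all tested probe sets of a gene in place of the brightest moved 21 of the 168 differences by more than the spread between arrays, and those of Adcy5 (1.72), Ampd2 (-0.67), Dsc2 (3.65), Hand2 (2.80), Hoxa9 (-3.75), Idh2 (0.60), Ighm (-1.46), Rian (-0.93) and Sox10 (-1.28) by over 1.5 times; among genes that did not pass, Tpm3 (-1.75) and Dtna (-0.42) changed sign. Leaving out each animal turned the sign of 8 named genes that did not pass, with ranges of -0.037 to 0.67 for Gnao1, -2.47 to 0.72 for Cd79b, -3.0 to 0.56 for Jchain and -1.73 to 0.13 for Cd3e (turned without animal 66), -0.028 to 0.31 for Tpm3 (without 61 or 65), -0.27 to 1.39 for Krt8 (without 61), and -1.27 to 0.058 for Comp and -1.10 to 0.25 for Slc4a1 (without 65). The cause was not tested. The number of arrays, and dim levels in the lower tissue, limit precision.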

Other observations

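The homeobox genes of the Hox clusters, a family chosen after values were seen, were read by cluster, and differences between clusters were not tested. Of 19 Hox genes tested, 12 were higher in gastrocnemius and 0 higher in heart in limma, with a median of -2.19. All 3 Hoxd genes tested were higher in gastrocnemius, Hoxd9 by -4.52, Hoxd8 by -4.31 and Hoxd10 by -4.81, as were 4 of 6 Hoxc genes and 5 of 7 Hoxa genes. Of 3 Hoxb genes 0 passed, with differences from -0.80 to 0.12. Hoxc4, an anterior member of its cluster, differed by -5.07, while its neighbours Hoxc5 and Hoxc6 did not pass (-0.60 and -0.62).

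Of 747 genes with more than 1 probe set past the threshold, 11 had probe sets called both ways. Trdn, triadin, which anchors calsequestrin to the ryanodine receptor, was the one with the largest differences. One probe set was higher in gastrocnemius (-2.82 ± 0.27 SE, adjusted p = 0.00253), whereas 3 others were higher in heart (2.73, 4.46 and 5.31, with SE of 0.30, 0.21 and 0.24). Triadin is known to have cardiac and skeletal isoforms, but which transcripts these probe sets read was not tested. The other 10 genes were Speg, Synpo2, Rtn4, Tln1, Rmdn1, Pcmt1, Epb41l5, Airn, Gigyf2 and 1810014B01Rik.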
